A study of Homo sapiens with 4 samples.

Results

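Pre-mRNA splicing is carried out by the spliceosome, a machine that is rebuilt on every intron from small nuclear ribonucleoprotein particles (snRNPs) and many further proteins. The U1 snRNP recognises the 5′ splice site, U2AF and the U2 snRNP recognise the 3′ splice site and the branch point, and the U4/U6.U5 tri-snRNP joins before the Prp19 complex accompanies catalytic activation. SRSF1, a serine/arginine-rich protein that binds exons, is known to help recruit U1 and U2AF to nearby splice sites. The genes described here encode 37 core proteins of these particles, out of 40205 genes in the deposited table. They were chosen by name and role, with earlier results of these data known. All 37 were found, and all passed the filter for testing. They comprise 3 U1 proteins, 7 Sm ring proteins, 10 U2 proteins, 2 U2AF subunits, 8 U4/U6.U5 proteins, 5 Prp19 complex proteins and 2 DEAH-box helicases.

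Poly(A) RNA was sequenced from U87MG and U251, established human glioblastoma cell lines, infected with lentivirus carrying sh-SRSF1 (knockdown, KD) or the hairpin sh-NC (control, labelled WT). Infection was at a multiplicity of 20 and cells were selected with puromycin for 1 week, so the controls also carry a hairpin and the resistance gene. The 4 groups are U87MG KD, U87MG WT, U251 KD and U251 WT, with 1 library each, and the knockdown is replicated only across the 2 lines. Separate infections for the libraries are not mentioned in the labels. The p-values therefore rest on how far the difference between knockdown and control disagreed between the 2 lines, with variance shared across genes. That disagreement may be technical. Spread between replicate cultures of a line was not measured.

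Values are RPKM, read numbers scaled to gene length and library size. Comparisons of levels between genes depend on the gene lengths used. The reads per library came to 25974900 in U87MG KD, 26298575 in U87MG WT, 27953878 in U251 KD and 25099799 in U251 WT. SRSF1 was at 14.6 RPKM in U87MG KD against 88.3 RPKM in U87MG WT, and at 15.8 RPKM in U251 KD against 109 RPKM in U251 WT (limma estimate -2.62 ± 0.16 SE on the log2 scale, adjusted p = 0.0022). A share of 0.685 of the 31-base words of the SRSF1 transcript also occurs in an overlapping annotated gene. Of 8 astroglial markers, VIM, CD44 and TNC were abundant in all libraries, whereas GFAP was under 1.5 RPKM in every library. SOX2 was at 0.05 and 0.12 RPKM in U87MG KD and WT, but at 49.3 and 47.9 RPKM in U251 KD and WT. NES was at 1.29 and 1.79 RPKM in U87MG KD and WT, but at 83.7 and 61.1 RPKM in U251 KD and WT. S100B reached at most 0.09 RPKM and CHI3L1 at most 0.10 RPKM. The 6 leukocyte markers together summed to 0.274 to 0.354 RPKM per library, with CD3E and LST1 at 0. The summed endothelial, epithelial and neuronal markers reached at most 8.18, 27.6 and 8.45 RPKM.

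Promoter sequences show one feature that many of these genes share. The 250 bases before the RefSeq transcription start (GRCh38.p14) were searched on both strands for short motifs in the 34 genes with an entry. These windows are called promoters here, but some reach past the GENCODE gene start into the gene. The windows of BUD31, DHX38, PRPF4, PRPF31, SF3A2, SF3A3, SF3B2, SF3B4, SNRPA, SNRPD2, SNRPG and U2AF2 lie wholly inside the GENCODE gene. That of SNRPE lies almost wholly inside it. Those of SNRPE and SNRPG include coding sequence. All of these windows are kept in the counts. SNRPD1, SF3B3 and PRPF3 had no entry. The ETS factor motif CCGGAAGT occurred in 11 of 34 promoters (32.4%), against 9.02% of the 5990 promoters of other mRNA genes with a mean of at least 5 RPKM, and 3.61% of all 27271 other promoters. Among these 11, only the matches in PRPF6 and SNRPA1 lie before the GENCODE gene start, and the others lie after it. The CCAAT box, searched as CCAAT, occurred in 38.2% of the 34 and in 36.1% of the other expressed genes. The TATA box, searched as TATAAA, was in 2 of the 34 (5.88%, against 4.87% of the other expressed genes) and the NRF1 core GCATGCGC in 2 (5.88%, against 5.71%). The E2F motifs TTTCGCGC or TTTGGCGC were in 1, SF3B1 (2.94%, against 1.80%). Shown 5′ to 3′ on the gene's strand, with matches in capitals, are the promoters of U2AF2 and SNRPB, which were lower in both knockdown libraries and carry the ETS motif, and of PLRG1, which was higher in both and carries none of the motifs searched. They lie at chr19:55654785-55655034 (forward strand), chr20:2470790-2471039 (reverse) and chr4:154550401-154550650 (reverse).

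U2AF2: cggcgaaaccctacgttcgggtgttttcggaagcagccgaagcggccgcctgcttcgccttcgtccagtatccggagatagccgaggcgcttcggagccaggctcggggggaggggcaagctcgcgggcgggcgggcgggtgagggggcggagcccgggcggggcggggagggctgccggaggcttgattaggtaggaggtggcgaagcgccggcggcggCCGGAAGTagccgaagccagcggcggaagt

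SNRPB: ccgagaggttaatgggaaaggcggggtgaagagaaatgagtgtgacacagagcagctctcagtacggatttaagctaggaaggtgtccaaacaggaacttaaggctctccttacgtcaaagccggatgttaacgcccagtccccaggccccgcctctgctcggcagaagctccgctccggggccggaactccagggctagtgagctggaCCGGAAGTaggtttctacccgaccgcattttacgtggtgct

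PLRG1: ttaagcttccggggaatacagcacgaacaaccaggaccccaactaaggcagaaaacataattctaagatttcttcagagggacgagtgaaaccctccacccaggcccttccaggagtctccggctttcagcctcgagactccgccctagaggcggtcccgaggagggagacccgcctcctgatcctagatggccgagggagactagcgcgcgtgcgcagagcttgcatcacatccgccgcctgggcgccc

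In U2AF2 and SNRPB the ETS match stands in the last 50 bases before the RefSeq start used. In both it lies after the GENCODE gene start. The 11 genes with the motif had median log2 ratios of knockdown over control of -0.42 in U87MG and -0.08 in U251, and the 23 without it -0.19 and 0.03. Motif and direction did not run together in every gene. BUD31 carries the ETS motif and was higher in both lines (0.06 and 0.20). SNRPA1, SF3A3 and PRPF6 carry it and were higher in U251. The carriers lower in both lines were SNRPB, SNRPE, SF3A1, SF3A2, SF3B2, SF3B4 and U2AF2. PRPF4, SNRNP200 and SNRPG carry none of the motifs searched and were lower in both lines. SNRPA, SF3B1, U2AF1, PRPF8, SNRNP40 and DHX15 lack the ETS motif and were also lower in both. For PRPF4, SNRPG and SNRPA the window lies inside the gene, so the sequence upstream of the GENCODE start was not searched. No test was made of the difference in medians, and a match does not show that a factor binds.

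The main comparison asked how the core spliceosome genes stood after SRSF1 knockdown. No member passed the test across the lines, in either direction. In U87MG most were lower in the knockdown library, by a median of 0.23 on the log2 scale, whereas in U251 they lay on both sides of no change. SF3B3, a scaffold subunit of the U2 SF3b complex, and U2AF2, the subunit of U2AF that binds the polypyrimidine tract, were lower in both lines. PLRG1, a WD40 protein of the Prp19 complex, was the member furthest above its controls in both lines.

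Ratios are log2 of (KD RPKM + 1) over (WT RPKM + 1). In U87MG 30 of 37 members had a ratio below 0, against 55.5% of all 16098 genes tested and 56.3% of those with a mean of at least 5 RPKM. In U251 17 of 37 were below 0, against 50.5% and 46.0%. The medians of the members were -0.23 in U87MG and 0.01 in U251, and those of all genes tested were -0.05 and -0.004. The size of the U87MG shift depended on the scaling. After trimmed-mean rescaling of the libraries the members' U87MG median was -0.12 and 26 of 37 lay below 0, against 47.2% of all genes.

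**Figure D1:**
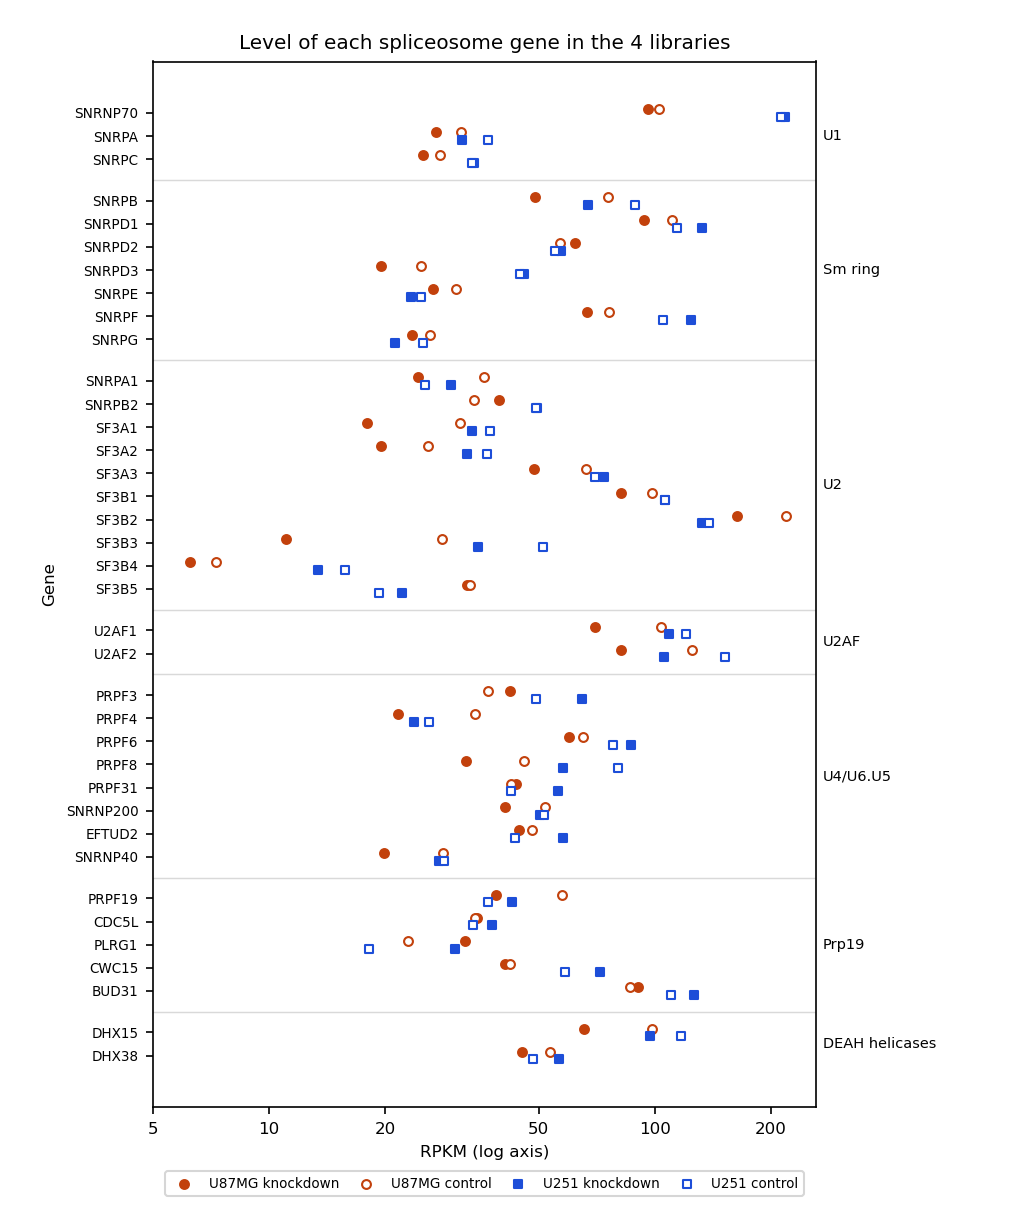
RPKM (log axis) of each of the 37 genes in the 4 libraries, grouped by particle, with filled symbols for knockdown and open symbols for control, circles for U87MG and squares for U251. Every library is a single point, so no error bar can be drawn; most U87MG knockdown points lie left of their controls, and SF3B3 shows the widest gap.

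By limma with the cell line as a block, 0 of 37 members were called lower (2.61% of all genes were) and 0 higher (1.16% of all genes) at a Benjamini-Hochberg adjusted p under 0.05. At an unadjusted p under 0.05, 6 were lower, SF3B3, U2AF2, SNRPB, PRPF8, SF3A1 and DHX15, against 12.8% of all genes, and 1 was higher, PLRG1, against 8.29%. The shares of members were 16.2% and 2.7%. One member was at least 2-fold lower in U87MG, SF3B3, against 3.58% of all genes.

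At a smaller step of 0.5 on the log2 scale, 9 members were lower in U87MG (24.3%, against 14.8% of all genes) and 0 were higher (9.79% of all genes). In U251, 2 were lower (10.5% of all genes) and 1 was higher (7.18%). Both lines were below 0 for 17 members (45.9%, against 36.5% of all genes) and above 0 for 7 (18.9%, against 29.3%).

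The remaining 13 members had a ratio below 0 in U87MG and above 0 in U251 (35.1%, against 18.5% of all genes). The opposite pattern occurred in 0 members and in 13.2% of all genes. The U87MG ratio was under the U251 ratio in 32 of 37 members, against 57.1% of all genes tested and 62.5% of those with a mean of at least 5 RPKM. With 1 library per line and arm, the difference between the lines was not tested for any gene.

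**Figure D2:**
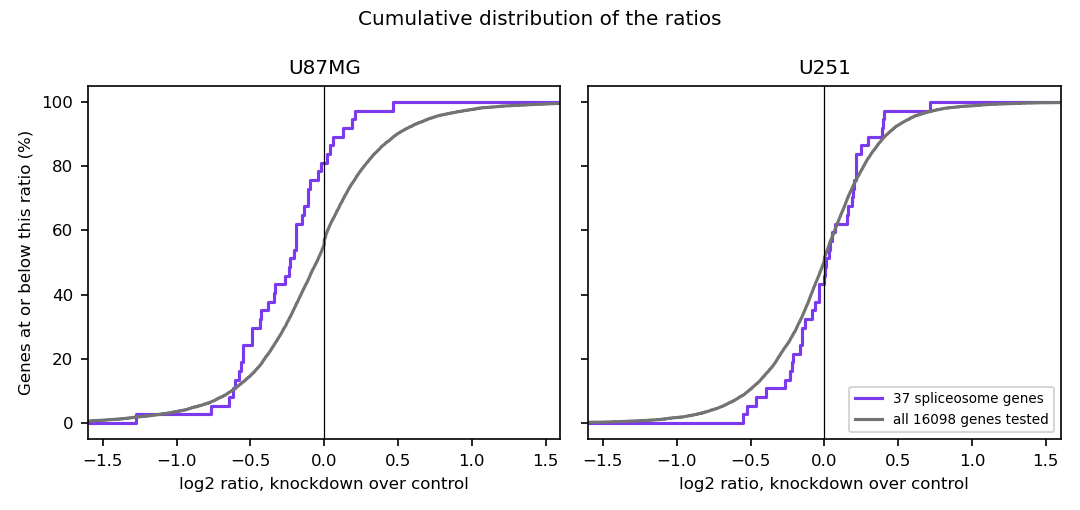
Share of genes (%) at or below each log2 ratio of knockdown over control, for the 37 spliceosome genes and all 16098 genes tested, in U87MG (left) and U251 (right). In U87MG the spliceosome curve lies to the left of the curve of all genes over most of its range, with 30 of 37 genes below 0; in U251 the curves cross near 0, with 17 of 37 below it.

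Proliferation markers moved with the knockdown. Each of the 12 listed was below its control in both lines, and limma called 9 of them lower. The number called was 5 without the intensity trend and 0 after trimmed-mean rescaling, without the filter or without the block. Their median ratio was -1.54 in U87MG and -0.85 in U251. Their summed level was 278 RPKM in U87MG KD against 904 RPKM in U87MG WT, and 694 RPKM in U251 KD against 1283 RPKM in U251 WT. Their part in the spliceosome ratios was not tested. In bulk RNA, fewer cycling cells and less RNA per cell cannot be told apart.

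Counting error was also set beside these differences. Reads were taken as the smallest whole numbers that give each value, which can understate them. For PRPF3 the gene length recovered with them was 1236 bases, shorter than its coding sequence of 2049 bases. The 95% Clopper-Pearson interval of the ratio of knockdown to control lay below 1 for 27 members in U87MG. It lay above 1 for 4 and across 1 for 6. In U251 the counts were 13, 14 and 10. These intervals cover counting error only and say nothing of the spread between cultures.

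The U1 proteins differed little between the arms. SNRNP70, the U1-70K protein that contacts SR proteins, was at 95.8 RPKM in U87MG KD against 102 RPKM in U87MG WT, and at 217 RPKM in U251 KD against 212 RPKM in U251 WT (limma estimate -0.03 ± 0.15 SE). SNRPA, the A protein that binds a U1 RNA stem-loop, had ratios of -0.21 and -0.22, the lowest of the group in both lines. SNRPC, the C protein that stabilises U1 on the 5′ splice site, had ratios of -0.14 and 0.01. The medians of the 3 were -0.14 in U87MG and 0.01 in U251.

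The Sm proteins form a ring of 7 subunits around U1, U2, U4 and U5 RNA. SNRPB, which encodes SmB and SmB′, had the lowest ratio of the group in both lines. It was at 48.9 RPKM in U87MG KD against 75.8 RPKM in U87MG WT, and at 67.2 RPKM in U251 KD against 88.7 RPKM in U251 WT. Both knockdown libraries were below both controls, with ratios of -0.62 and -0.39 (limma -0.51 ± 0.16 SE, adjusted p = 0.13). By reads, the KD level was 0.646 times the WT level in U87MG (interval 0.604 to 0.69) and 0.758 times in U251 (0.715 to 0.803).

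The other Sm genes had limma estimates between -0.19 (SNRPG) and 0.09 (SNRPD2). SNRPD1 was at 93.6 RPKM in U87MG KD against 111 RPKM in U87MG WT, but at 132 RPKM in U251 KD against 114 RPKM in U251 WT, ratios of -0.24 and 0.21. SNRPF showed the same order of libraries, with ratios of -0.19 and 0.25, and SNRPD3 ratios of -0.33 and 0.03. SNRPE and SNRPG were lower in both lines, SNRPE at -0.19 and -0.08 and SNRPG at -0.15 and -0.23. SNRPD2 was the only Sm gene above its control in both lines (0.12 and 0.05). Shares of 0.332 of the SNRPG and 0.25 of the SNRPE words occur in pseudogenes, and exons of other genes overlap shares of 0.151 of SNRPB on the same strand and 0.182 of SNRPD3 on the opposite one.

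Among the U2 proteins, 9 of 10 were below their control in U87MG and 6 of 10 in U251. The medians were -0.40 and -0.03. SF3B3 (GENCODE 29, GRCh38, chr16:70523788-70577670, forward strand) was at 11.03 RPKM in U87MG KD against 28.1 RPKM in U87MG WT, and at 34.7 RPKM in U251 KD against 51.4 RPKM in U251 WT. Each knockdown library was below its own control, but the U251 KD level was above that of U87MG WT. The ratios were -1.27 and -0.55, the lowest among the members in each line, and limma gave -0.91 ± 0.21 SE (adjusted p = 0.057). By reads, the KD level was 0.393 times the WT level in U87MG (interval 0.376 to 0.41) and 0.677 times in U251 (0.659 to 0.695). When only genes with a mean of at least 5 RPKM were tested the call was made (adjusted p = 0.027), and likewise after quantile normalization (adjusted p = 0.03), while other alternatives gave 0.056 to 0.9998.

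SF3A1, a subunit of the SF3a complex that links SF3b to the U2 core, was at 17.96 RPKM in U87MG KD against 31.3 RPKM in U87MG WT, and at 33.5 RPKM in U251 KD against 37.4 RPKM in U251 WT. The U87MG pair was far apart and the U251 pair close, with ratios of -0.77 and -0.15 (limma -0.46 ± 0.20 SE, adjusted p = 0.23). Its partners SF3A2 and SF3A3 had ratios of -0.38 and -0.44 in U87MG and of -0.17 and 0.07 in U251. All 3 SF3a genes were below their control in U87MG. Exons of another gene overlap a share of 0.203 of SF3A2 on the opposite strand.

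Among the other SF3b subunits, SF3B1, the subunit that clamps the branch-point helix, had ratios of -0.27 and -0.003, SF3B2 of -0.42 and -0.06, SF3B4 of -0.19 and -0.21, and the small subunit SF3B5 of -0.02 and 0.19. SNRPA1, the A′ protein of U2, was at 24.3 RPKM in U87MG KD against 36.1 RPKM in U87MG WT, and at 29.6 RPKM in U251 KD against 25.3 RPKM in U251 WT. Its ratios of -0.55 and 0.22 gave the widest gap between the lines of any member. A share of 0.543 of its 31-base words also occurs in another annotated gene, so its values are uncertain. SNRPB2, the B″ protein of U2 and binding partner of SNRPA1, was the only U2 gene above its control in both lines (0.21 and 0.01).

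Both U2AF subunits were lower in both lines. U2AF2 was at 81.9 RPKM in U87MG KD against 125 RPKM in U87MG WT, and at 106 RPKM in U251 KD against 152 RPKM in U251 WT. Both knockdown libraries were below both controls, with ratios of -0.60 and -0.52 (limma -0.56 ± 0.15 SE, adjusted p = 0.091). After quantile normalization U2AF2 was called lower (adjusted p = 0.041). U2AF1, which binds the AG at the 3′ splice site, was at 70.0 RPKM in U87MG KD against 104 RPKM in U87MG WT, and at 109 RPKM in U251 KD against 121 RPKM in U251 WT (ratios -0.56 and -0.15, limma -0.36 ± 0.17 SE, adjusted p = 0.28). A share of 0.969 of its words occurs in the near-identical annotated copy U2AF1L5, so its values are uncertain.

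Of the 8 U4/U6.U5 proteins, PRPF8, PRPF4, SNRNP200 and SNRNP40 were below their controls in both lines, and PRPF3 and PRPF31 above them. PRPF8, the scaffold of the catalytic centre, was at 32.3 RPKM in U87MG KD against 45.7 RPKM in U87MG WT, and at 57.9 RPKM in U251 KD against 80.1 RPKM in U251 WT. Each knockdown library was below its control by nearly the same ratio, -0.49 and -0.46 (limma -0.47 ± 0.16 SE, adjusted p = 0.15). PRPF4, a U4/U6 protein, was at 21.5 RPKM in U87MG KD against 34.2 RPKM in U87MG WT, and at 23.7 RPKM in U251 KD against 26.0 RPKM in U251 WT (limma -0.39 ± 0.19 SE, adjusted p = 0.29). The gap was mostly in U87MG, with ratios of -0.64 and -0.13.

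PRPF3, which binds PRPF4 in the same particle, was at 42.1 RPKM in U87MG KD against 36.9 RPKM in U87MG WT, and at 64.9 RPKM in U251 KD against 49.2 RPKM in U251 WT (ratios 0.19 and 0.39, limma 0.29 ± 0.16 SE, adjusted p = 0.36). PRPF31, a further U4/U6 protein, had ratios of 0.04 and 0.40. Exons of other genes cover a share of 0.38 of the PRPF31 transcript on the opposite strand, and the strand setting of the counting is not given in the sources used here. The GTPase EFTUD2 (-0.11 and 0.40) and the tri-snRNP bridge PRPF6 (-0.11 and 0.16) were lower in U87MG KD and higher in U251 KD. SNRNP200, the helicase that unwinds U4 from U6, had ratios of -0.34 and -0.03, and SNRNP40, a WD40 protein of U5, ratios of -0.49 and -0.03. The U87MG ratio was under the U251 ratio for all 8.

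In the Prp19 complex all 5 members were higher in U251 KD, with a median of 0.20, while the U87MG median was 0.02. PLRG1 (chr4:154535006-154550435, reverse strand) was at 32.2 RPKM in U87MG KD against 23.0 RPKM in U87MG WT, and at 30.3 RPKM in U251 KD against 18.1 RPKM in U251 WT. Both knockdown libraries were above both controls, with ratios of 0.47 and 0.71 (limma 0.59 ± 0.17 SE, adjusted p = 0.1). By reads, the KD level was 1.4 times the WT level in U87MG (interval 1.32 to 1.48) and 1.68 times in U251 (1.57 to 1.78).

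PRPF19, the ubiquitin ligase that gives the complex its name, was at 38.8 RPKM in U87MG KD against 57.3 RPKM in U87MG WT, and at 42.6 RPKM in U251 KD against 37.02 RPKM in U251 WT. It was the Prp19 member with the lowest U87MG ratio, -0.55, and had a U251 ratio of 0.20. CDC5L, a Myb-like core subunit, had ratios of 0.02 and 0.16, CWC15 of -0.04 and 0.30 and BUD31 of 0.06 and 0.20. A share of 0.511 of the BUD31 transcript is overlapped on the opposite strand by exons of other genes, mainly PTCD1.

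DHX15, the helicase that takes spliceosomes apart after splicing, was at 65.4 RPKM in U87MG KD against 98.0 RPKM in U87MG WT, and at 97.0 RPKM in U251 KD against 117 RPKM in U251 WT. Both knockdown libraries were below both controls, by a narrow margin in U251 KD, with ratios of -0.58 and -0.27 (limma -0.42 ± 0.16 SE, adjusted p = 0.2). DHX38, the helicase that remodels the spliceosome after branching, was at 45.4 RPKM in U87MG KD against 53.3 RPKM in U87MG WT, and at 56.3 RPKM in U251 KD against 48.4 RPKM in U251 WT. Its directions were opposite in the lines, with ratios of -0.23 and 0.21. Exons of other genes overlap a share of 0.161 of its transcript on the opposite strand.

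**Figure D3:**
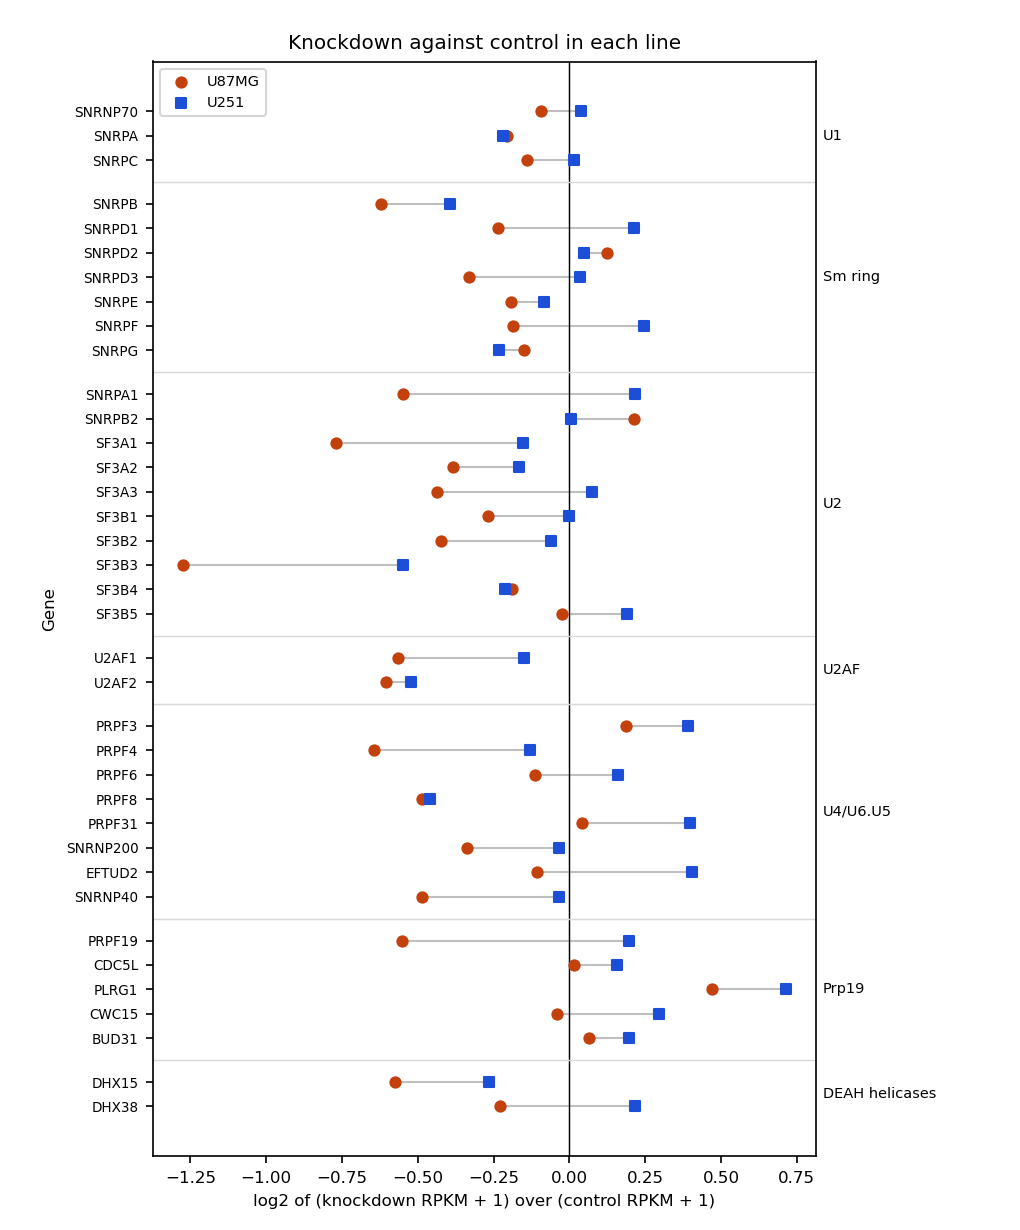
Log2 ratio of knockdown over control for each gene, grouped by particle, with a circle for U87MG and a square for U251 joined by a line. SF3B3 lies furthest to the left in both lines and PLRG1 furthest to the right, and 13 genes have the U87MG point left of 0 and the U251 point right of it.

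The levels themselves spanned a wide range and differed between the lines. Averaged over both arms, the highest member in U87MG was SF3B2, at 191 RPKM, and in U251 SNRNP70, at 215 RPKM, while SF3B4 was lowest in both, at 6.76 and 14.6 RPKM. The Sm proteins enter the ring together, yet their RNA levels in U87MG ran from SNRPD1 at 102 RPKM through SNRPF at 71.4, SNRPB at 62.3, SNRPD2 at 59.4, SNRPE at 28.5 and SNRPG at 24.8 to SNRPD3 at 22.1 RPKM. In U251 the order was SNRPD1 at 123 RPKM, SNRPF at 115, SNRPB at 77.9, SNRPD2 at 56.0, SNRPD3 at 45.3, SNRPE at 23.99 and SNRPG at 23.1 RPKM. In U87MG the range of SNRPB over the arms overlapped those of SNRPF and SNRPD2, and the ranges of SNRPG and SNRPD3 overlapped. In U251 those of SNRPD1 and SNRPF overlapped, and those of SNRPE and SNRPG. SNRPD3 was lowest of the ring in U87MG and stood above SNRPE and SNRPG in U251. Such orders depend on the gene length behind each value. The length recovered from the values was 3808 bases for SNRPD3, against 1763 bases for its GENCODE 29 transcript. It was 1600 against 4909 bases for SNRPD1 and 1547 against 942 bases for SNRPE. For the other Sm genes these lengths were closer.

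By the coefficient of the line in the same limma fit, 10 of 37 members (27.0%) were called lower in U87MG than in U251. This share was the same as among all genes (27.0%). Called higher were 2 members (5.4%), against 21.6% of all genes. SNRNP70 was lower in U87MG (limma estimate -1.11 ± 0.15 SE, adjusted p = 0.00082), at 95.8 and 102 RPKM in U87MG KD and WT against 217 and 212 RPKM in U251 KD and WT. SF3B3 (-1.21), SNRPD3 (-1.01), SF3B4 (-1.004), PRPF8 (-0.81), SNRPF (-0.67), CWC15 (-0.63), SF3A2 (-0.60), SF3A1 (-0.55) and PRPF3 (-0.51) were also called lower in U87MG. SF3B5 (0.65 ± 0.17 SE) and SF3B2 (0.48 ± 0.16 SE) were the SF3b subunits called higher in U87MG. The number called lower was 17 after quantile normalization and 4 without the filter on low values. The number called higher was 1 after quantile normalization or without the intensity trend, and 0 without the filter.

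**Figure D4:**
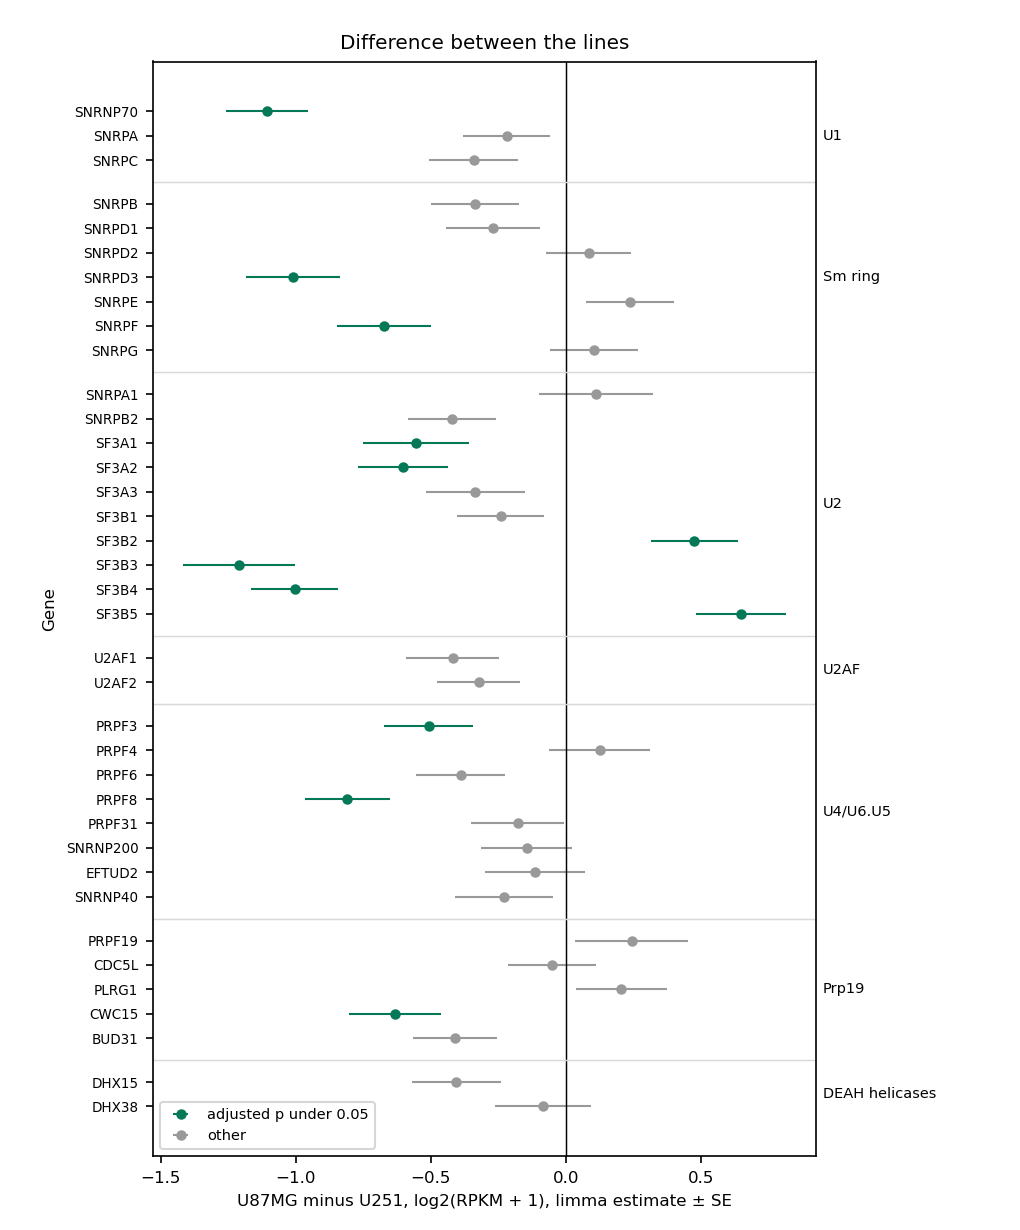
Limma estimate of U87MG minus U251 on the log2(RPKM + 1) scale for each gene, with its standard error (2 libraries per line, arm as a covariate); green marks an adjusted p under 0.05. SF3B3, SNRNP70, SNRPD3 and SF3B4 lie near or beyond -1, and SF3B5 and SF3B2 are the green points right of 0.

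Of 74 genes in 4 lists of other spliceosome, LSM ring, minor spliceosome and snRNP assembly genes, 73 were found and tested, and LSM8 had no unambiguous match. Their medians were -0.21 in U87MG and 0.03 in U251, and 53 (72.6%) and 34 (46.6%) were below 0, against 55.5% and 50.5% of all genes tested. The U87MG ratio was under the U251 ratio in 61 (83.6%), against 57.1% of all genes. By limma 1 was called lower (1.37%, against 2.61% of all genes) and 0 higher (1.16% of all genes). At an unadjusted p under 0.05, 6 were lower (8.22%, against 12.8% of all genes) and 4 higher (5.48%, against 8.29%).

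The called gene was WDR77, the partner of PRMT5 in the complex that methylates Sm proteins before ring assembly. WDR77 was at 13.4 RPKM in U87MG KD against 32.4 RPKM in U87MG WT, and at 17.8 RPKM in U251 KD against 31.2 RPKM in U251 WT. Both knockdown libraries were below both controls, and WDR77 fell by 0.99 ± 0.18 SE on the log2 scale (limma, adjusted p = 0.032). The call was lost after trimmed-mean rescaling (adjusted p = 0.086), without the intensity trend (0.055), without the filter (0.42) and without the block (0.9998).

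The 17 snRNP assembly genes had medians of -0.25 and 0.03 in U87MG and U251. GEMIN4, of the SMN complex, had ratios of -0.58 and -0.32, and GEMIN8 0.32 in both. The 6 LSM ring genes, whose products bind the end of U6 RNA, had medians of -0.34 and 0.01, with LSM5 at -0.67 and -0.24, LSM3 at -0.21 and -0.50 and LSM7 at 0.17 and 0.38. The 8 minor spliceosome genes had medians of -0.09 and -0.03, with SNRNP25 at -0.56 and -0.30, SNRNP48 at 0.23 and 0.48 and ZCRB1 at -0.15 and -0.38. Among the 42 other spliceosome genes the medians were -0.20 and 0.12. PPIH, a cyclophilin of the tri-snRNP, had ratios of -1.01 and -0.44, SART3, a U6 recycling factor, -0.73 and -0.43, and SF3B6 (SF3B14 in the table), the branch-point-binding p14 subunit of SF3b, 0.52 and 0.59. None of these named genes other than WDR77 was called.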

How the data were processed

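The authors deposited RPKM values, which correct read numbers for the length of a gene and the size of a library. The submitters' processing notes name Bowtie 0.12.2 and hg19. How genes were annotated and counted, with which strand setting, and what was done with multi-mapping reads is not given in the sources used here. Samples were grouped by title and all 4 value columns were used.

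The members and gene lists were chosen with earlier results of these data known. Values were taken as log2(RPKM + 1), for 16098 genes with at least 1 RPKM in at least 1 library. Since the table holds RPKM, limma 3.58.1 in R 4.3.3 was used across the 4 libraries, with the cell line as a block, an intensity trend and Benjamini-Hochberg adjustment over all genes (two-sided). With 1 residual degree of freedom, the error rests largely on variance shared across genes. The 2 libraries of a line are paired because they come from the same cell line. Within a line only values and counts are given.

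The total reads of each library were derived from small RNA genes of known length, and 150 to 179 such genes gave the same total. Gene reads were the smallest whole numbers within 0.01 reads for a model of up to 40000 bases, and all 300 genes drawn as a check came out whole (2 of 300 after multiplying by random factors). Copies were searched as 31-base words in GENCODE 29 transcripts, the transcript with the longest coding sequence standing for each gene. Promoters are windows before the start in the RefSeq table (GRCh38.p14), and some lie partly or wholly inside the GENCODE gene. No coordinates were converted from hg19.

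Genes given in full were those called or among the 10 largest absolute estimates, and other members are given by their ratios; context lists name called genes and up to 3 largest estimates. The table symbols SF3B14 and NHP2L1 were matched to SF3B6 and SNU13 through RefSeq synonyms. The limma step was also run on simulated reads, with the same fold change set in both lines. Those reads did not cover a response that differs between the lines. Alternatives were other pseudocounts, filters and scalings, no block and no trend. Other tools were matplotlib 3.10.9, scipy 1.17.1, pandas 2.3.3 and numpy 2.4.6 under Python 3.11.15.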

Additional observations from a re-analysis of the deposited data

Results flagged for a closer look

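For 13 members, and for the list medians given below, the ratio of knockdown over control was below 0 in U87MG and above 0 in U251. With 1 library per arm in each line, the difference between U87MG and U251 was not tested. The counting interval crossed 1 in U251 for SNRNP70, SNRPC and SNRPD3, in U87MG for CWC15 and in both lines for SF3B5. For these genes counting error alone leaves a direction unsettled. Each value is the U87MG log2 ratio minus the U251 log2 ratio. The widest gaps were those of SNRPA1 (-0.77), PRPF19 (-0.75), EFTUD2 (-0.51) and SF3A3 (-0.51). SNRPD1 (-0.45), DHX38 (-0.44), SNRPF (-0.43), SNRPD3 (-0.36) and CWC15 (-0.34) followed. PRPF6 (-0.27), SF3B5 (-0.21), SNRPC (-0.15) and SNRNP70 (-0.13) had the smallest gaps.

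List medians with opposite signs in the lines included those of all 37 members (-0.24), the U1 proteins (-0.15), the Sm ring (-0.23) and the U4/U6.U5 proteins (-0.29). Outside the members they included those of the LSM ring (-0.35), other spliceosome genes (-0.32) and snRNP assembly genes (-0.28). The U251 medians of all 37 members and of the U1 proteins were both the 0.01 of SNRPC, whose U251 counting interval crossed 1. The U251 median of the members was -0.02 after quantile normalization.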

How the results depend on the processing

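All 10 named members kept their direction under every alternative run. Changing the filter, the block or the trend leaves the estimate itself unchanged, so those runs could not alter a direction. Other pseudocounts could not either, because each of the 10 had ratios of the same sign in both lines. Only trimmed-mean rescaling and quantile normalization put the directions to a test. Counts of calls depended on the processing, and the cause was not tested. Among all genes, 186 were called higher and 420 lower, against 6 and 5 after trimmed-mean rescaling, 315 higher after quantile normalization and 88 and 172 without the intensity trend. Leaving out the filter gave 0 and 0 by limma (at an unadjusted p under 0.05, 1234 higher and 1890 lower). Leaving out the block for the paired libraries also gave 0 and 0 (79 and 183 at an unadjusted p under 0.05). The call of SRSF1 was lost under both. Of the members, 1 was called lower with the mean filter of 5 RPKM and 2 after quantile normalization. Members called lower in U87MG than in U251 were 4 and higher 0 without the filter, 17 and 1 after quantile normalization, and 1 was higher without the trend. Leaving out the 2 members with shared words, an alternative chosen after seeing the data, changed no count by over 1.5 times. Leaving out a library could not be fitted with the block, since no residual degree of freedom remains, so each line's own ratios stand in for it. The smallest read number derived for a member was 340 (SNRPG in U251 KD), and counting intervals spanned no change for 6 members in U87MG and 10 in U251.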
